A study of Rattus norvegicus with 40 samples.

Results

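Kidney T cells of SS/CRL rats were set against kidney T cells of SS/MCW rats, both on low-salt chow (LS) at 10 weeks of age. The comparison rests on 8 of the 40 libraries of the series, 4 for each colony, chosen by tissue, colony, chow and age as labelled. Every library pooled RNA from 3 rats. Both colonies descend from the Dahl strain (SS), inbred rats whose blood pressure climbs on a salty diet. As background, SS/MCW and SS/CRL rats are kept at separate sites and have been raised on different base chows, so colony and chow cannot be told apart here. The comparison asks what separates the colonies when neither has been given high salt, and the groups on high-salt chow for 3 weeks (HS) and the circulating T cells of the same colonies serve as comparisons. The labels do not state how T cells were isolated.

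Expression is the authors' FPKM (fragments scaled to transcript length and to the mapped fragments of the library), which the authors deposited as 1 value per group for each gene model. No spread among the 4 libraries can therefore be printed beside a value, and the depth of the libraries is unknown. The words rose and fell are kept for gene models with status OK and a q under 0.05 from Cuffdiff, as the authors' deposited table lists it. Coordinates follow build rn5, as in the deposited tables. Nothing in the labels ties a pool to separate cell preparations, so the variation between pools that the q-values rest on may be partly technical.

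As background, the proximal tubule reabsorbs phosphate, glucose, amino acids and bicarbonate from the filtrate and secretes organic anions and cations. The thick ascending limb reclaims salt through the cotransporter encoded by Slc12a1 and secretes uromodulin, encoded by Umod. Kidney T cells lie between these tubules and the capillaries around them, and in SS rats T cells infiltrate the kidney during salt-induced hypertension.

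The labelled cell type was checked against its markers. T cell transcripts were present in the kidney libraries, and so were tubule transcripts, some above and some below them. Cd3e, which encodes an invariant CD3 subunit, had 26.8 FPKM in SS/CRL and 41.2 FPKM in SS/MCW kidney cells, against 672 and 712 FPKM in circulating cells of the same colonies. Umod had 1049 FPKM in SS/CRL and 3910 FPKM in SS/MCW kidney cells, and was listed at 0 in SS/CRL and at 0.0288 FPKM in SS/MCW circulating cells. Slc34a1, the main phosphate transporter gene of the proximal tubule, had 3318 FPKM in SS/CRL and 547 FPKM in SS/MCW kidney cells and was under 0.04 FPKM in circulating cells of both colonies. Cubn, the endocytic receptor gene of the proximal tubule, stood lower, at 49.3 FPKM in SS/CRL and 34.3 FPKM in SS/MCW kidney cells. Among B cell markers Cd79b stood at 3.69 FPKM in SS/CRL and 2.17 FPKM in SS/MCW kidney cells, and among platelet markers Ppbp was listed at 0 in both while Pf4 stood at 18.8 FPKM in SS/CRL and 40.2 FPKM in SS/MCW kidney cells. The red cell gene Hba1 had 1684 FPKM in SS/CRL and 2595 FPKM in SS/MCW kidney cells, against 38.6 and 28.4 FPKM in circulating cells. C1qb, of macrophages, had 5.26 FPKM in SS/CRL and 42.9 FPKM in SS/MCW kidney cells and was listed at 0 in circulating cells. Cdh5, of endothelium, had 3.92 FPKM in SS/CRL and 9.83 FPKM in SS/MCW kidney cells and was likewise listed at 0 in circulating cells. The kidney libraries thus hold RNA of tubule cells and of other cells beside that of T cells. Values of genes of those cells are given as values of the libraries, not of T cells. In such bulk libraries fewer cells of a type and less RNA per cell cannot be told apart.

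Of 31677 gene models 18032 were tested, and 246 rose and 80 fell in SS/CRL rats. These are 1.36% and 0.444% of the tested gene models, the background for the counts below. In all, 1743 had an unadjusted p under 0.05. A symbol was carried by 121 of the gene models that rose and by 45 of those that fell. For the named genes that rose the median log2 fold change was 1.62, and for those that fell, leaving out Apoc1, it was -1.53. Of the 326 calls 89 had 1 group listed at 0, namely 61 listed at 0 in SS/MCW and 28 listed at 0 in SS/CRL. The calls depend on the p that Cuffdiff computed. When p was instead read from a normal distribution of the test statistic and adjusted over the same gene models, there were 3 higher and 2 lower calls. Slc34a3 was the single gene with a symbol among them, and the only one of them also among the 326 calls.

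Kidney libraries of SS/CRL rats differed first in the 4 lists of proximal tubule transport and handling, of which 13 genes rose and none fell. These include a protease gene, Napsa, and a scaffold gene, Pdzk1. Slc34a3, a sodium-phosphate cotransporter gene of the brush border (chromosome 3 from 2429662 to 2435216), had 113 FPKM in SS/CRL and 5.98 FPKM in SS/MCW libraries, a log2 fold change of 4.24 with q = 0.00524 in the authors' deposited table. This was the largest rise among genes with a symbol and at least 5 FPKM. Amn, which encodes the partner of cubilin in protein uptake, had 171 FPKM in SS/CRL and 35.8 FPKM in SS/MCW libraries. Napsa, an aspartic protease gene, had 285 FPKM in SS/CRL and 121 FPKM in SS/MCW libraries. In the list of phosphate, calcium and vitamin D handling these were the 3 genes that rose, 12 of 15 tested genes did not pass, and the median log2 fold change was 0.47. The same median over all 20703 gene models with at least 1 FPKM was 0.01, and it was -0.10 over the 12160 of these with a symbol.

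Size and call did not go together in that list. Slc34a1 had a log2 fold change of 2.60, above that of Amn with 2.26, and did not pass, with q = 0.419 in the authors' deposited table. Pth1r, the parathyroid hormone receptor gene, stood at 331 FPKM in SS/CRL and 181 FPKM in SS/MCW libraries. Klotho (Kl), the coreceptor of the phosphate-lowering hormone FGF23, stood at 24.8 FPKM in SS/CRL and 32.1 FPKM in SS/MCW libraries, and neither gene passed.

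Organic ion transporters had a median log2 fold change of 1.11, and 16 of 18 members had a higher value in SS/CRL libraries. Of the 12160 gene models with a symbol and at least 1 FPKM 42.6% did, and 57.4% had the lower value. These shares are the background for the counts of higher and lower list members on LS below. Of 16 tested 5 rose. Slc22a6, the anion transporter OAT1 (chromosome 1 from 231761612 to 231774615), had 845 FPKM in SS/CRL and 154 FPKM in SS/MCW libraries. It lies on the side of the tubule cell that faces the blood. Slc17a3, an apical urate and phosphate transporter gene, had 172 FPKM in SS/CRL and 32.9 FPKM in SS/MCW libraries, and the urate transporter gene Slc22a12 (URAT1) had 470.06 FPKM in SS/CRL and 104 FPKM in SS/MCW libraries. Pdzk1, which encodes the scaffold that anchors several of these transporters at the brush border, had 476 FPKM in SS/CRL and 186 FPKM in SS/MCW libraries. Some members of the list had nearly equal values, as Slc22a2 with 62.8 FPKM in SS/CRL and 54.6 FPKM in SS/MCW libraries and Abcc4 with 28.2 and 25.3 FPKM in the same order.

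Amino acid transporters rose for 4 of 13 tested genes, with a median log2 fold change of 1.03. Slc7a9, the light chain of the cystine transporter, had 172 FPKM in SS/CRL and 37.4 FPKM in SS/MCW libraries, and Slc3a1, its heavy chain, stood at 577 FPKM in SS/CRL and 243 FPKM in SS/MCW libraries without passing. Slc6a13, a GABA and taurine transporter gene, had 19.0 FPKM in SS/CRL and 3.85 FPKM in SS/MCW libraries. Slc7a7, the light chain of a basolateral transporter of basic amino acids, had 153 FPKM in SS/CRL and 56.2 FPKM in SS/MCW libraries. The proline transporter gene Slc6a20 shares its gene model with RGD1566368, and that model had 39.8 FPKM in SS/CRL and 8.98 FPKM in SS/MCW libraries.

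Among glucose, sodium, bicarbonate and water transport genes Slc13a2, a citrate and dicarboxylate transporter gene, was the 1 of 18 that rose, with 38.5 FPKM in SS/CRL and 14.6 FPKM in SS/MCW libraries. Slc5a2, the glucose transporter SGLT2 of the first tubule segments, stood at 64.5 FPKM in SS/CRL and 9.44 FPKM in SS/MCW libraries with q = 0.275 in the authors' deposited table. Its gene model has the same locus as RGD1310127, so reads may have been divided between them. Slc5a1 (SGLT1), the glucose transporter of the late segment, stood at 3.89 FPKM in SS/CRL and 7.21 FPKM in SS/MCW libraries. The water channel gene Aqp1 stood at 1393 FPKM in SS/CRL and 1887 FPKM in SS/MCW libraries. The list median was 0.57, with 13 of 18 members higher in SS/CRL.

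**Figure D1:**
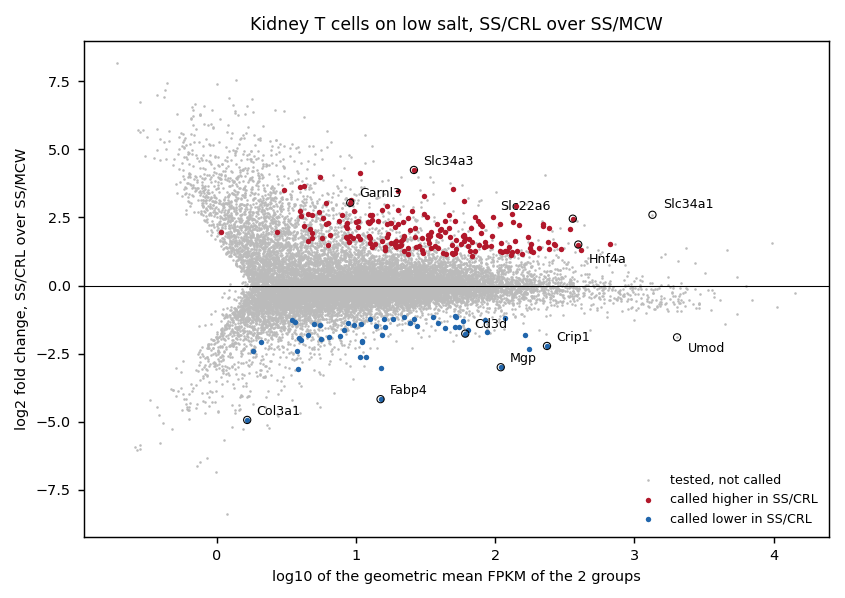
Log2 fold change of SS/CRL over SS/MCW (vertical axis) against the log10 geometric mean FPKM of the 2 groups (horizontal axis) for the 17414 tested gene models with a value above 0 in both. Red and blue points are gene models called higher and lower in SS/CRL, and ringed points are named genes. Slc34a1 and Umod, uncalled, lie among the most abundant gene models at 2.60 and -1.90.

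Metabolic genes of the proximal tubule lay in the same direction with few calls. Slc27a2, which imports and activates very long chain fatty acids, had 237 FPKM in SS/CRL and 49.6 FPKM in SS/MCW libraries and was the 1 of 29 fatty acid oxidation genes that rose. In that list 24 of 29 members had the higher value in SS/CRL and the median log2 fold change was 0.38. In the list of xenobiotic and glutathione genes Akr1c1, an aldo-keto reductase gene, rose to 231 FPKM in SS/CRL, against 39.7 FPKM in SS/MCW libraries, while Nqo1, a quinone reductase gene, stood at 3.87 FPKM in SS/CRL and 11.5 FPKM in SS/MCW libraries. The list median was 0.52, with 22 of 23 tested genes not passing. Rdh5, a retinol dehydrogenase gene, rose to 30.8 FPKM in SS/CRL, against 5.08 FPKM in SS/MCW libraries, the 1 call among 16 tested genes of retinol and steroid metabolism (median 0.51).

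No gene of gluconeogenesis and ammoniagenesis passed among 16 (median 0.55), where Miox, an inositol oxygenase gene, stood at 3780 FPKM in SS/CRL and 1441 FPKM in SS/MCW libraries. Pck1, the rate-limiting enzyme of gluconeogenesis, stood the other way, at 357 FPKM in SS/CRL and 645 FPKM in SS/MCW libraries. None of 11 brush border hydrolases passed (median 0.47), with Acy1 at 673 FPKM in SS/CRL and 420 FPKM in SS/MCW libraries. Among 15 proximal tubule transcription factors 2 rose (median 0.25). Hnf4a, a nuclear receptor that directs proximal tubule differentiation, had 666 FPKM in SS/CRL and 234 FPKM in SS/MCW libraries, and Maf had 153 FPKM in SS/CRL and 40.4 FPKM in SS/MCW libraries.

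Enzyme genes outside the lists rose as well, and those named here were chosen after their values were seen. Ass1, an enzyme of arginine synthesis, had 651 FPKM in SS/CRL and 263 FPKM in SS/MCW libraries with q = 0.0498 in the authors' deposited table. Ddc, which makes dopamine from L-DOPA, had 82.8 FPKM in SS/CRL and 29.3 FPKM in SS/MCW libraries. Cbs, an enzyme of homocysteine removal, had 136 FPKM in SS/CRL and 51.0 FPKM in SS/MCW libraries. Prodh2, a hydroxyproline dehydrogenase gene, had 318 FPKM in SS/CRL and 92.6 FPKM in SS/MCW libraries, and Grhpr, which reduces glyoxylate, had 1128 FPKM in SS/CRL and 389 FPKM in SS/MCW libraries. Alpl (tissue-nonspecific alkaline phosphatase), Slc37a4 (the glucose-6-phosphate transporter of the endoplasmic reticulum) and Nr1i2 (the xenobiotic receptor PXR) also rose, with log2 fold changes of 1.82, 1.50 and 2.35. Also among the 8 largest rises were Garnl3 (26.0 FPKM in SS/CRL and 3.17 FPKM in SS/MCW), Prima1 (40.2 and 5.89 FPKM in the same order) and RGD1310127 (324 and 52.9 FPKM).

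Promoters were searched for motifs of the factor encoded by Hnf4a and of HNF1, a homeodomain factor of the same tubule segment, because Hnf4a was among the genes that rose. The HNF4 motif was CAAAGTCCA and the HNF1 motif was GTTAATNAT, both read on either strand of the RefSeq promoters of build GRCr8, which run from 250 bases before to 50 bases after the start. Each promoter printed here holds only 1 of the motifs, so no overlap of their letters could arise there. Of the 13 genes of these transport and handling lists that rose 8 had an entry, and 1 of these, Pdzk1, held the HNF4 motif while none held the HNF1 motif. Of 119 single-symbol genes that rose 87 had an entry, and 1 held each motif. The share of all 33469 promoters was 0.391% for the HNF4 motif and 0.747% for the HNF1 motif. The promoters that held one are shown with the motif in capitals. The Pdzk1 sequence is chr2:187064745-187065044 on the plus strand with the HNF4 motif beginning at base 242, and the Prodh2 sequence is chr1:94880837-94881136 on the plus strand with the HNF1 motif on the opposite strand, beginning at base 106.
Pdzk1: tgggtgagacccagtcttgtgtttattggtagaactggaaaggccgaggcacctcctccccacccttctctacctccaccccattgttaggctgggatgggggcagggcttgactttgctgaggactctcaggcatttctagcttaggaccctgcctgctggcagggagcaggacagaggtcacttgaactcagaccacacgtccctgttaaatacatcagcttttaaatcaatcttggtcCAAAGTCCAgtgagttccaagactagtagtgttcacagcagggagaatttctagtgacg
Prodh2: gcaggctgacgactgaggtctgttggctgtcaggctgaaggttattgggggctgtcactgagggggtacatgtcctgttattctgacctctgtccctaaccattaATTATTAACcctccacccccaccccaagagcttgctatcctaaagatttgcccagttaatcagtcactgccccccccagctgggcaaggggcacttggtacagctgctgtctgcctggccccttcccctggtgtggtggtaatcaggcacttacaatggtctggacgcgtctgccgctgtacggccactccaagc
A match of letters is a description and not a site of binding, and a promoter without a match says only that these letters are not in its window.

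Genes of the thick ascending limb lay in the opposite direction from those of the proximal tubule. Their median log2 fold change was -1.07, and 17 of 18 members had the lower value in SS/CRL libraries. Of the 12160 gene models with a symbol and at least 1 FPKM 57.4% did. A single member fell, Cldn16, whose claudin forms the paracellular pore for magnesium and calcium, with 34.9 FPKM in SS/CRL and 78.1 FPKM in SS/MCW libraries and q = 0.0414 in the authors' deposited table. Slc12a1 stood at 126 FPKM in SS/CRL and 430.01 FPKM in SS/MCW libraries with a q of 0.284, and Umod, with a log2 fold change of -1.90, had q = 0.617 in the authors' deposited table. Casr, the calcium-sensing receptor gene, stood at 9.53 FPKM in SS/CRL and 39.2 FPKM in SS/MCW libraries, and the growth factor gene Egf at 15.2 FPKM in SS/CRL and 56.4 FPKM in SS/MCW libraries. Slc34a2, a phosphate transporter gene related to Slc34a1 and Slc34a3, fell, with 30.3 FPKM in SS/CRL and 86.2 FPKM in SS/MCW libraries. Within that family of 3 the values thus stood in opposite directions.

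Distal tubule and collecting duct genes had a median of -0.26 and no call among 23 tested. Aqp2, the vasopressin-regulated water channel gene, stood at 205 FPKM in SS/CRL and 153 FPKM in SS/MCW libraries. Kcnj16, a potassium channel subunit gene, stood at 249 FPKM in SS/CRL and 259 FPKM in SS/MCW libraries. In the list of renin-angiotensin and sodium transport genes none of 22 passed, and 21 of 24 had the lower value in SS/CRL (median -0.62). Its member Atp1b1, the beta subunit of the sodium pump, stood at 762 FPKM in SS/CRL and 1401 FPKM in SS/MCW libraries. Cldn4 and Tspan8, epithelial membrane protein genes chosen after their values were seen, fell by 1.10 and 1.18 on the log2 scale.

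**Figure D2:**
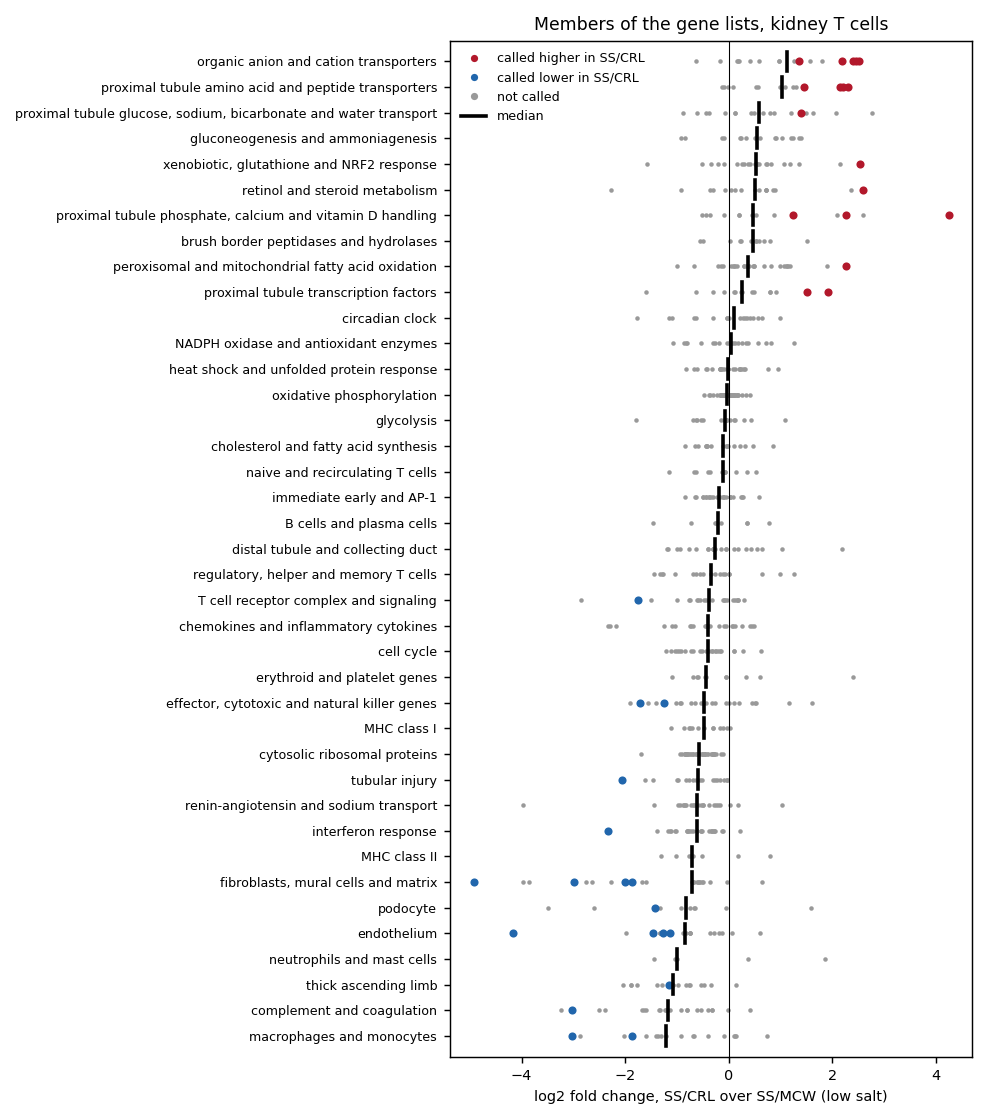
Log2 fold change of SS/CRL over SS/MCW on LS (horizontal axis) for the members of the 39 gene lists (vertical axis) that reach 1 FPKM in either group and are above 0 in each. Red and blue points are members called higher and lower in SS/CRL, grey points were not called, and black bars are medians. The medians run between 1.11 for organic ion transporters and -1.21 for macrophages, with complement and coagulation at -1.18 and the thick limb at -1.07.

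Vascular, stromal and podocyte genes fell for 9 members of 3 lists and rose for none. Fabp4, a fatty acid carrier gene of capillary endothelium, had 3.54 FPKM in SS/CRL and 63.5 FPKM in SS/MCW libraries. The endothelial receptor genes Eltd1 (3.31 FPKM in SS/CRL and 9.10 FPKM in SS/MCW) and Ptprb (2.21 and 5.33 FPKM in the same order) fell, as did the adhesion molecule gene Pecam1 (15.0 and 32.9 FPKM). Of 20 endothelial genes 16 did not pass, and the median was -0.85. Kdr, the main VEGF receptor gene, stood at 2.98 FPKM in SS/CRL and 2.85 FPKM in SS/MCW libraries.

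In the list of fibroblast, mural and matrix genes 4 of 22 fell and the median was -0.72, with 22 of 23 members lower. Col3a1, a fibrillar collagen gene (chromosome 9 from 51689491 to 51725414), had 0.299 FPKM in SS/CRL and 9.11 FPKM in SS/MCW libraries, a log2 fold change of -4.93. With a pseudocount of 1 it was -2.96, smaller than that of Fabp4 at -3.83. Mgp, an inhibitor of tissue calcification, had 38.8 FPKM in SS/CRL and 309 FPKM in SS/MCW libraries. The matrix genes Thbs2 and Fn1 had 2.00 and 3.32 FPKM in SS/CRL and 8.07 and 12.1 FPKM in SS/MCW libraries. Other collagen genes were low in both groups, as Col1a1 with 0.138 FPKM in SS/CRL and 1.99 FPKM in SS/MCW libraries. Podxl, a sialomucin gene of podocytes and endothelium, fell to 5.89 FPKM in SS/CRL, against 15.8 FPKM in SS/MCW libraries. It was the 1 call among 9 podocyte genes tested (median -0.83).

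Tubular injury genes were lower in SS/CRL for all 18 members with at least 1 FPKM (median -0.60), and 1 of 18 fell. SS/CRL also had the lower value for 57.4% of the 12160 gene models with a symbol and at least 1 FPKM. All 38 ribosomal protein genes, a list without a call, were lower as well (median -0.58). Havcr1, the injury marker KIM-1, had 5.36 FPKM in SS/CRL and 22.5 FPKM in SS/MCW libraries. Lcn2, the secreted injury marker NGAL, stood at 83.8 FPKM in SS/CRL and 168 FPKM in SS/MCW libraries with q = 0.0790 in the authors' deposited table. Spp1, the osteopontin gene, stood at 5863 FPKM in SS/CRL and 8435 FPKM in SS/MCW libraries.

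T cell genes had few calls on LS. Of 19 tested genes of the T cell receptor complex Cd3d alone fell, to 33.0 FPKM in SS/CRL, against 112 FPKM in SS/MCW libraries, and the list median was -0.38. Cd3g, which encodes another chain of the complex, stood at 35.0 FPKM in SS/CRL and 98.7 FPKM in SS/MCW libraries with q = 0.0565 in the authors' deposited table, while Cd3e had a q of 0.627 there. Of the 22 list members with at least 1 FPKM 16 had the lower value in SS/CRL, and log2 fold changes ran from -2.85 to 0.30. The kinase genes Lck (33.5 FPKM in SS/CRL and 35.2 FPKM in SS/MCW) and Zap70 (22.4 and 20.1 FPKM in the same order) had nearly equal values. The coreceptor genes stood at 5.17 FPKM (Cd4) and 48.4 FPKM (Cd8a) in SS/CRL and at 7.26 FPKM (Cd4) and 97.1 FPKM (Cd8a) in SS/MCW libraries. Ptprc, the leukocyte phosphatase CD45, stood at 12.9 FPKM in SS/CRL and 12.2 FPKM in SS/MCW libraries. No gene of naive and recirculating T cells passed among 12 (median -0.11), and none of regulatory, helper and memory T cells among 17 (median -0.34). Klf2, a factor of quiescent recirculating cells, stood at 35.6 FPKM in SS/CRL and 37.3 FPKM in SS/MCW libraries.

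In the list of effector, cytotoxic and natural killer genes 2 of 22 fell (median -0.48). Tyrobp (DAP12) and Fcer1g, signaling adaptors of natural killer and myeloid cells, had 48.4 and 54.3 FPKM in SS/CRL and 159 and 129 FPKM in SS/MCW libraries. The granzyme genes Gzma and Gzmb stood at 2.59 and 3.87 FPKM in SS/CRL and at 0.846 and 1.72 FPKM in SS/MCW libraries. Macrophage genes had the lowest list median, -1.21, with 2 of 18 called. C1qb, a chain of complement C1q, had 5.26 FPKM in SS/CRL and 42.9 FPKM in SS/MCW libraries, and Gpnmb, a glycoprotein gene of phagocytes, had 4.04 FPKM in SS/CRL and 14.7 FPKM in SS/MCW libraries. Lysozyme (Lyz2) stood at 98.8 FPKM in SS/CRL and 255 FPKM in SS/MCW libraries with q = 0.0579 in the authors' deposited table. Csf1r, the receptor on which macrophages depend, stood at 22.2 FPKM in SS/CRL and 20.5 FPKM in SS/MCW libraries. Apoc1, an apolipoprotein gene, was listed at 0 in SS/CRL and had 14.4 FPKM in SS/MCW libraries, the single gene with a symbol that was called with a group at 0.

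Interferon response genes were lower in SS/CRL for 27 of 28 members (median -0.62), and Ifi27l2b alone fell, with 77.4 FPKM in SS/CRL and 391 FPKM in SS/MCW libraries. Ifi27, a related gene, stood at 158 FPKM in SS/CRL and 341 FPKM in SS/MCW libraries. Outside the list the interferon-induced membrane protein genes Ifitm1 and Ifitm3, chosen after their values were seen, fell by 1.57 and 1.63 on the log2 scale. The complement and coagulation list had a median of -1.18, with 21 of 22 members lower and C1qb its 1 call among 21. No call was made among 12 MHC class I genes (median -0.48), 7 MHC class II genes (median -0.70) or 21 chemokine and cytokine genes (median -0.40). B2m, the light chain of MHC class I, stood at 383 FPKM in SS/CRL and 625 FPKM in SS/MCW libraries, and Cxcl12, a chemokine gene, at 40.9 FPKM in SS/CRL and 97.7 FPKM in SS/MCW libraries. B cell and plasma cell genes (median -0.20) and neutrophil and mast cell genes (median -1.003, 5 members) had no call.

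The other genes among the 8 largest falls were Crip1 and F2r. Crip1, a LIM domain protein gene, had 109 FPKM in SS/CRL and 507 FPKM in SS/MCW libraries, and F2r, the thrombin receptor PAR1, had 5.51 FPKM in SS/CRL and 22.3 FPKM in SS/MCW libraries. S100a4, a calcium-binding protein gene of motile and mesenchymal cells chosen after its values were seen, had 87.1 FPKM in SS/CRL and 309 FPKM in SS/MCW libraries.

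Housekeeping lists held no call. All 38 ribosomal protein genes had the lower value in SS/CRL (median -0.58), as Rps27 with 2579 FPKM in SS/CRL and 4813 FPKM in SS/MCW libraries. Oxidative phosphorylation genes were divided, with 17 of 36 higher and a median of -0.04, and Atp5b, a subunit of ATP synthase, stood at 2235 FPKM in SS/CRL and 2109 FPKM in SS/MCW libraries. The medians were -0.06 for glycolysis, -0.11 for cholesterol and fatty acid synthesis, -0.02 for heat shock and unfolded protein response, -0.19 for immediate early genes, 0.11 for the circadian clock and 0.05 for NADPH oxidase and antioxidant enzymes. Fos, an immediate early gene that tissue handling can induce, stood at 250 FPKM in SS/CRL and 266 FPKM in SS/MCW libraries. Cell cycle genes had a median of -0.41, with Pcna, the DNA polymerase clamp gene, at 43.7 FPKM in SS/CRL and 54.6 FPKM in SS/MCW libraries. Erythroid and platelet genes had a median of -0.43, and the hemoglobin gene Hba1 stood at 1684 FPKM in SS/CRL and 2595 FPKM in SS/MCW libraries.

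The genes that differed were mostly genes with little RNA in circulating T cells. Of the 121 named genes that rose 76, or 62.8%, had under 1 FPKM in circulating cells of both colonies on LS. Of the 45 that fell 27, or 60.0%, did so, against 22.1% of the 11447 tested gene models with a symbol. Among genes that rose 15 reached 10 FPKM in at least 1 circulating group, as Hspbap1 with 27.0 FPKM in SS/CRL and 27.3 FPKM in SS/MCW circulating cells and 49.5 FPKM in SS/CRL and 14.4 FPKM in SS/MCW kidney cells. Among those that fell 12 did, among them Cd3d, Crip1, S100a4 and Ifi27l2b. Some tubule, vascular and macrophage genes differed between the colonies as given above. The part of RNA of such cells in the differences of genes shared with T cells was not tested.

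In circulating cells on LS 70 gene models were higher and 22 lower in SS/CRL, 0.412% and 0.129% of 17004 tested. The labels give the same pool numbers to kidney and circulating libraries of a colony, so both tissues come from shared pools of rats. The calls shared with kidney were 5. Prr5, a subunit gene of the growth kinase complex mTORC2, rose in both tissues, with 35.6 FPKM in SS/CRL and 12.5 FPKM in SS/MCW kidney cells and 1.46 FPKM in SS/CRL and 0.604 FPKM in SS/MCW circulating cells. The other 4 fell in SS/CRL kidney cells and rose in SS/CRL circulating cells. Tyrobp had 25.0 FPKM in SS/CRL and 12.1 FPKM in SS/MCW circulating cells, and Fcer1g had 34.8 FPKM in SS/CRL and 21.7 FPKM in SS/MCW circulating cells. Emb, the adhesion protein embigin, had 24.1 FPKM in SS/CRL and 62.5 FPKM in SS/MCW kidney cells, against 2.87 FPKM in SS/CRL and 1.54 FPKM in SS/MCW circulating cells. Scin, which encodes an actin-severing protein, had 24.0 FPKM in SS/CRL and 53.1 FPKM in SS/MCW kidney cells, against 1.47 FPKM in SS/CRL and 0.581 FPKM in SS/MCW circulating cells.

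The difference of the colony effects, kidney minus circulating, was tested with a z statistic built on the deposited test statistics and the log2 fold changes. The test treats the tissues as independent, although they share pools, and with 1 value per group no pairing could be used. Of 11499 gene models 1 passed after Benjamini-Hochberg adjustment, or 0.0087%, an unnamed model with an outsized statistic, and 41 had an unadjusted p under 0.05. Where the deposited p, and not the test statistic, supplied the standard errors, 16 passed, 4 with the higher and 12 with the lower effect in kidney. Tyrobp differed by -2.77 on the log2 scale with an adjusted p of 0.000742 in this z test, Scin by -2.48, Emb by -2.27 and Fcer1g by -1.93, and F2r, S100a4, Mcam and Crip1 were also among the 12. For all 4 genes called in opposed directions the z test with test statistics gave an adjusted p of 1.00, so the tests disagree.

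On HS 625 gene models were higher and 674 lower in SS/CRL kidney cells, 2.75% and 2.97% of 22692 tested. No library is shared between the diets, and the tables were normalized separately, so levels are compared within a diet. Of the gene models that rose on LS 47 also rose on HS, or 19.1% of the LS calls and 7.52% of the HS calls. Of those that fell on LS 29 also fell on HS, or 36.3% and 4.30%. With a value above 0 in every group, 185 gene models that rose on LS had a median log2 fold change of 1.82 on LS and 0.70 on HS, and 172 of them were also above 0 on HS. The 52 that fell had medians of -1.60 on LS and -0.92 on HS, and 42 were below 0 on HS. The LS values chose these gene models, so their smaller medians on HS are a description.

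Genes that rose on both diets included Slc34a3, Pdzk1, Hnf4a, Maf, Ass1, Ddc, Prodh2, Ambp and Garnl3. Hnf4a had 347 FPKM in SS/CRL and 121 FPKM in SS/MCW libraries on HS, a log2 fold change of 1.53 beside 1.51 on LS. Slc34a3 had 17.7 FPKM in SS/CRL and 5.65 FPKM in SS/MCW libraries on HS, with 1.65 beside 4.24. In the organic ion transporter list Pdzk1 had a log2 fold change of 1.37 on HS beside 1.36 on LS. Abcg2, an efflux transporter gene not called on LS, rose on HS, with 14.2 FPKM in SS/CRL and 7.08 FPKM in SS/MCW libraries. Lower fold changes on HS were those of Slc22a6 with 169 FPKM in SS/CRL and 134 FPKM in SS/MCW libraries on HS and Slc22a12 with 105 and 82.2 FPKM in the same order. Slc22a6 and Slc22a12 did not pass on HS. For organic ion transporters the list median was 0.39 on HS beside 1.11 on LS.

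Genes that fell on both diets included Havcr1, Crip1, S100a4, Ifi27l2b, Fabp4, C1qb, Gpnmb, Tyrobp, Fcer1g, Fn1, F2r and Cd3d. Havcr1 had 6.98 FPKM in SS/CRL and 25.5 FPKM in SS/MCW libraries on HS. Mgp and Col3a1, which fell on LS, stood at 67.7 and 0.745 FPKM in SS/CRL and at 70.4 and 0.486 FPKM in SS/MCW libraries on HS. Among 4 gene models that fell on LS and rose on HS Eltd1 was the single one with a value above 0 in every group, with 6.86 FPKM in SS/CRL and 3.36 FPKM in SS/MCW libraries on HS. Pecam1 stood at 24.6 FPKM in SS/CRL and 16.9 FPKM in SS/MCW libraries on HS, and the endothelial list had a median of 0.85 on HS, with 4 members called higher and 1 lower, beside -0.85 on LS. Thick limb genes had a median of -0.84 on HS with 8 members that fell, and 4 of 18 had the higher value in SS/CRL there, beside 1 of 18 on LS. The T cell receptor list had a median of -1.90 on HS with 19 members that fell, beside -0.38 and 1 on LS.

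**Figure D3:**
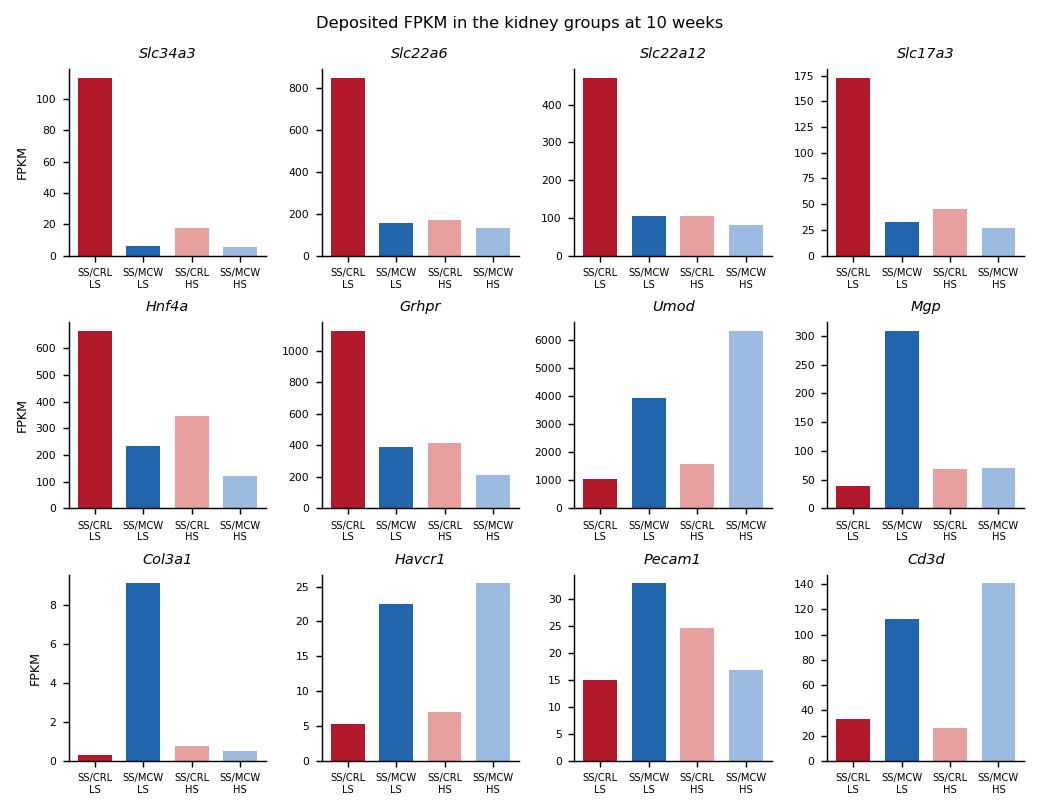
Deposited FPKM (vertical axes, from 0) of 12 genes in the kidney libraries of SS/CRL and SS/MCW rats at 10 weeks on LS (dark bars) and on HS (pale bars). There is 1 value per group, without error bars. The LS and HS pairs come from tables normalized separately. On LS Slc22a6 has 845 FPKM in SS/CRL and 154 FPKM in SS/MCW, and Mgp has 38.8 and 309 FPKM in the same order. Slc34a3, Hnf4a, Grhpr, Havcr1 and Cd3d were called on both diets.

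Whether the colony effect differed between the diets was tested gene by gene with the same z. No gene model passed of 16579, or 0%, with 106 at an unadjusted p under 0.05. With standard errors from the deposited p 17 passed, 11 with the higher and 6 with the lower effect on LS. The 6 with the lower effect were Thbs2 (a difference of -2.80 on the log2 scale), Tm4sf1 (-2.13), Emcn (-2.22), Eltd1 (-2.49), Ptprb (-2.04) and Podxl (-2.11), of which Emcn, Eltd1, Ptprb and Podxl are genes of endothelium or of endothelium and podocytes. Those with the higher effect included Prkcb (3.49), a kinase gene of lymphocytes, Fmnl1 (2.37) and Dgka (2.44). For Slc22a6 the difference was 2.12, with an adjusted p of 0.295 in that test, and for Mgp it was -2.94, with an adjusted p of 0.105.

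**Figure D4:**
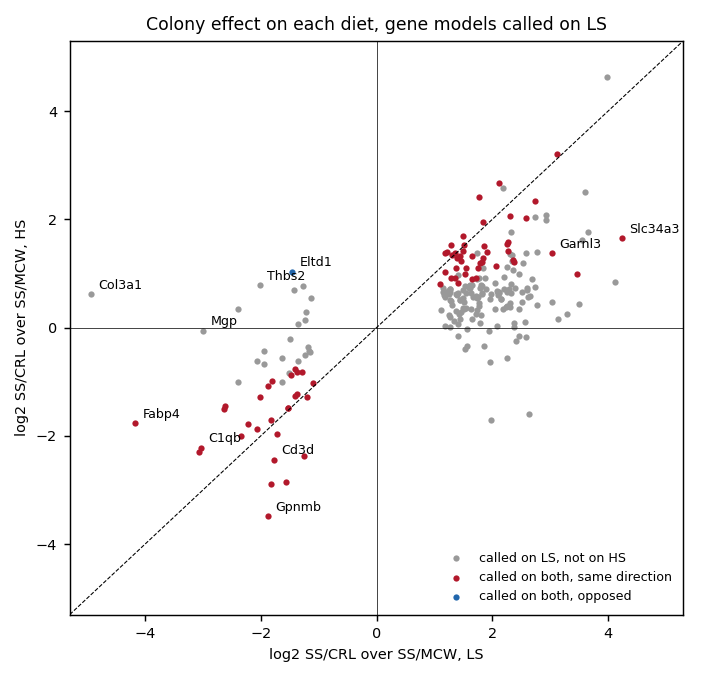
Log2 fold change of SS/CRL over SS/MCW on HS (vertical axis) against that on LS (horizontal axis) for the 237 gene models called on LS with a value above 0 in every kidney group. Red points were called on both diets in the same direction (72), the blue point in opposed directions (Eltd1), grey points on LS alone, and the dashed line marks equal effects. Of the 237 points 217 lie nearer to 0 on HS than on LS.

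No gene model was called in the same direction in all 4 colony comparisons (kidney and circulating cells, each on LS and HS), by the Cuffdiff q in the authors' deposited tables, and none by an unadjusted p under 0.05 in each (0 higher, 0 lower). The unadjusted p under 0.05 was reached by 1743 gene models in kidney cells on LS and by 610 in circulating cells on LS.

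Gene models without a symbol made up 125 of the 246 rises and 35 of the 80 falls. Of the 125 that rose 6, or 4.80%, lay within 50 kilobases of a named gene that rose, against 2.49% of 6583 tested unnamed models, and none of the 35 that fell lay so near a named gene that fell, against 0.395%. MSTRG.3177, with 389 FPKM in SS/CRL and 51.0 FPKM in SS/MCW libraries, is listed at the locus of Wdr93 on chromosome 1 from 142449492 to 142488537. MSTRG.845, on chromosome 1 from 42635381 to 42635750, had 169 FPKM in SS/CRL and 14.4 FPKM in SS/MCW libraries. Reads of close paralogs, among them Akr1c1, Slc17a3, Slc22a6, Cyp4a2, Ifitm1, Ifitm3, the ribosomal protein genes and the RT1 genes of MHC class I, may have been split between copies, so values of these genes are uncertain.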

How the data were processed

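RNA of isolated T cells was made into libraries with the TruSeq RNA kit, per the labels' protocols. Per the submitters' processing notes, the tools were cutadapt, Trim Galore 0.2.5, TopHat, TopHat2 2.1.1, Cufflinks 2.2.1 and Cuffdiff, with build rn5. The deposited expression values are FPKM, 1 per group, per the file headers. The authors deposited p-values and q-values of Cuffdiff beside a test statistic, which is its score. The authors deposited 15 such files, and 6 were read. Depth is unknown.

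Log2 fold changes, SS/CRL over SS/MCW, were computed from the deposited FPKM, since a spreadsheet had altered the deposited column. None is given where a group is at 0. Members and lists were chosen with earlier results of these data known. Of 885 members of 39 lists 820 matched a gene model, 778 by symbol, 9 by a synonym and 33 in a model shared with other symbols. A list median covers members that reach 1 FPKM in either group.

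Named were the 8 largest changes each way with at least 5 FPKM, up to 6 called members of a list, the most expressed members of lists without a call, and set markers. Others were named after their values were seen, and some genes that the rule named are not reported here. The difference test took each standard error as the size of the log2 fold change over that of the test statistic, then adjusted normal p-values by Benjamini and Hochberg, and was tested on simulated data, where it missed every moderate and most large differences. Promoters are RefSeq's, build GRCr8. The software was Python 3.11.15 with scipy 1.17.1, numpy 2.4.6 and pandas 2.3.3.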

Additional observations from a re-analysis of the deposited data

Results flagged for a closer look

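One gene model was marked by the test of the difference of colony effects between kidney and circulating cells on LS. MSTRG.59259, which carries no symbol and lies on the mitochondrial chromosome (M) from 15347 to 15415, stood at 13066 FPKM in SS/CRL and 15802 FPKM in SS/MCW kidney cells and at 411 FPKM in SS/CRL and 255 FPKM in SS/MCW circulating cells. Its colony effect differed by -0.96 on the log2 scale between the tissues. Its deposited test statistic in kidney was 47.0 in size, while the deposited p of the same comparison was 0.556. In circulating cells its test statistic was 113.5 in size, with q = 0.9999 in the authors' deposited table. With standard errors from the deposited p MSTRG.59259 did not pass. Without gene models whose test statistic exceeded 10, an alternative chosen after the data were seen, 0 gene models passed, with 40 at an unadjusted p under 0.05.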

How the results depend on the processing

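The calls in kidney cells on LS were 246 higher and 80 lower in SS/CRL. At q under 0.01 they were 149 and 47, and without gene models listed at 0 in a group 185 and 52. All 89 calls with a group listed at 0 had q = 0.00524 in the authors' deposited table, so the stricter threshold kept every one of them. A normal p of the test statistic gave 3 and 2, and recentring log2 values on genes of at least 5 FPKM left these at 3 and 2. Under the normal p without recentring, Slc34a3 alone was also called by the deposited q, so the others were new calls. Gene models with a symbol, chosen after the data were seen, gave 121 and 45. A minimum of 1 FPKM left both counts as they were, since all 18032 tested gene models reach it. The share of higher calls was 75.5%, and 60.0% under the normal p with or without recentring. The recentring shift was -0.02. Standard errors from the deposited p gave 17 passing differences between the diets in place of 0, and 16 between the tissues in place of 1, and 0 between the tissues without test statistics above 10. Between the diets the SD of z was 0.60 with the test statistic and 1.04 with the deposited p, so a lack of passing gene models does not show that effects were alike. In none of 39 lists did the median change sign under another FPKM minimum, a pseudocount of 1 or recentring, and none of 49 named genes did under a pseudocount, the FPKM of the salt tables or recentring. The fold of Col3a1 with a pseudocount of 1 was -2.96. No paired analysis was possible because the tables hold 1 value per group, and for the same reason no library could be left out. What limits every value is the lack of values per library and the unknown depth.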
